A study of Mus musculus with 12 samples.

Results

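The genes described here encode the 5 subunits of the transcription factor NF-kB (Nfkb1, Nfkb2, Rela, Relb and Rel) and 5 of its inhibitors and regulators (Nfkbia, Nfkbie, Nfkbiz, Bcl3 and Tnfaip3), followed in primary cardiomyocytes that were exposed to cytokines of the LIF and OSM type. They were selected by name, as the rows of the deposited table that carry one of these 10 gene symbols, and make up 10 of its 22915 genes. Every symbol had a single row, and all 10 genes passed the filter on low values.

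Cardiomyocytes were isolated from the hearts of male C57/Bl6 mice at an age of 12 weeks, for which the sample descriptions name no genetic modification, and were kept for 24 h in serum-free medium under normoxia. They received sterile PBS, the solvent of the proteins, or murine LIF (mLIF), murine OSM (mOSM) or hlOSM, each at 25 ng/mL by the sample descriptions, whereas the study's methods state a lower concentration. mLIF signals through the LIF receptor and mOSM through the OSM receptor, while hlOSM, a mouse OSM in which the AB loop is that of the human protein, reaches both. There were 3 libraries per condition and 12 in all, and neither the labels nor the methods say whether they came from separate animals, so that p-values measure the spread between these libraries, which may be technical.

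NF-kB acts as a dimer of its subunits. Rela, Rel and Relb encode subunits that can activate transcription, whereas Nfkb1 and Nfkb2 encode precursors that are shortened to p50 and p52, which bind DNA but lack an activation domain. In resting cells the dimers are held in the cytoplasm by inhibitors of the IkB family such as IkBα (Nfkbia) and IkBε (Nfkbie), until receptors for TNF, IL-1 or microbial products switch on the IKK kinases, which mark the inhibitors for degradation. Bcl-3 (Bcl3) and IkBζ (Nfkbiz) are nuclear members of the IkB family that bind p50 or p52 dimers and modify their activity, and A20 (Tnfaip3) is a ubiquitin-editing enzyme that shuts off the signal upstream of the kinases. Several of these genes are themselves targets of NF-kB, and both Bcl3 and Nfkbiz are also known as genes that respond to STAT3, the main transcription factor below the receptors of LIF and OSM. RNA levels do not show where the proteins are located or whether they are active.

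All values are normalized counts, that is, numbers of reads per gene after the authors' scaling between libraries, rounded to whole numbers and not divided by gene length. The normalized counts of a library summed to between 2745748 and 2911891, which is not the number of reads sequenced, so the depth behind single values is unknown. Markers of cardiomyocytes dominated the marker genes in every condition, but their summed level changed with treatment. The 8 cardiomyocyte genes (among them Myh6, Tnnt2 and Ttn) summed to 47572 to 49402 in the PBS libraries, 41237 to 43056 with mLIF, 33380 to 37353 with mOSM and 34186 to 36611 with hlOSM. Counts in these sums are not divided by length, and Ttn, with 116.8 kb of exon, made up most of them. Its means were 32924, 28727, 22907 and 23564 in the same order. Of the 8 cardiomyocyte genes 6, 7 and 7 passed the test downward with mLIF, mOSM and hlOSM. The 8 endothelial genes summed to 1188 to 1262, 1201 to 1266, 1471 to 1700 and 1477 to 1590 in the same order, and 6 of the 8 passed the test upward with mOSM and 6 with hlOSM. The 8 fibroblast genes summed to 2296 to 2526, 2110 to 2251, 2459 to 2885 and 2307 to 2540, but single genes moved in opposite directions, since 0 rose and 1 fell with mLIF, 2 rose and 3 fell with mOSM and 3 rose and 5 fell with hlOSM. Among them Col3a1 rose from 399 ± 17.1 (SD, n = 3) in PBS to 824 ± 94.9 with hlOSM, whereas Col1a2 fell from 485 ± 76.0 to 244 ± 23.9. The 6 genes of mural cells, which surround vessels, summed to 950 to 1188, 882 to 934, 660 to 714 and 602 to 626, and 0, 5 and 6 of them fell. Of 12 leukocyte genes 9 were in the table, summing to 313 to 336, 290 to 328, 356 to 395 and 329 to 400, with Ptprc between 13 and 32 in every library and Cd14, Cd79a and C1qa under 10 throughout, and 6 passed the filter. Of these 6, Cd68 was the gene that rose, from 53.7 ± 11.8 (SD, n = 3) in PBS to 81.3 ± 9.87 with mLIF, 125 ± 17.5 with mOSM and 132 ± 32.9 under hlOSM. Itgam fell with mOSM (log2 −1.13, adjusted p = 0.0324, or 0.0622 with replicate numbers as a block) and Lyz2 with hlOSM, from 176 ± 10.8 to 146 ± 14.9, while Ptprc, Csf1r and Adgre1 did not pass the test. The median log2 fold change of the 6 genes was −0.22, 0.02 and −0.16. Of all genes tested, 5.47%, 15.4% and 18.2% rose and 4.44%, 15.8% and 19.8% fell with mLIF, mOSM and hlOSM. The part of the marker shifts in the results below was not tested. In RNA from whole cultures a smaller number of cells of a type and less RNA per cell cannot be told apart.

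Against PBS, the nuclear regulators Bcl3 and Nfkbiz rose with hlOSM, and Bcl3 also rose with mOSM. The inhibitor Tnfaip3 and the subunit gene Nfkb2 fell with both, and the inhibitor Nfkbia fell with hlOSM. A rise of Nfkbiz and a fall of Nfkbia with mOSM passed only in the fit without the replicate number. The same held for a fall of Relb with hlOSM. Bcl3 was the only one of the 10 genes that passed the test with mLIF. Tests were made with limma on log2(normalized count + 1) over 13184 genes, and a gene is said to have risen or fallen where its Benjamini-Hochberg adjusted p (two-sided, over all genes tested) was under 0.05. By this measure 1 of the 10 genes rose and 0 fell with mLIF, where 5.47% of all genes tested rose and 4.44% fell. With mOSM 2 rose and 3 fell, where 15.4% and 15.8% of all genes did, and with hlOSM 2 rose and 4 fell, where 18.2% and 19.8% did. All libraries lay above those of PBS for 1 of the 10 genes with mLIF and for 2 with mOSM and 2 with hlOSM, where this held for 14.7%, 20.2% and 22.7% of all genes tested. All libraries lay below those of PBS for 2, 4 and 4 of the 10 genes, where this held for 15.6%, 19.9% and 24.3%. In the deposited values the difference between replicate numbers, averaged over the 4 conditions, was almost the same for each gene (SD of 0.0017 to 0.0019 on the log2 scale over 6626 genes). Libraries of a gene are therefore not free to vary independently, and a fit without the replicate number counts too many degrees of freedom and gives too small a spread. With the replicate number entered as a block, 1 gene rose and 0 fell with mLIF (3.39% and 2.56% of all genes), 1 rose and 2 fell with mOSM (12.5% and 12.8%) and 2 rose and 3 fell with hlOSM (14.7% and 16.5%). The calls lost were those of Nfkbiz and Nfkbia with mOSM and of Relb with hlOSM. With 10 genes, these shares lie near those of all genes and are not read as particular to the group. Over the 10 genes, the log2 fold changes had medians of −0.08 (mLIF), −0.03 (mOSM) and −0.07 (hlOSM), against 0.00037, −0.0043 and −0.0052 for all genes tested. Standard errors, intervals and adjusted p below come from the fit without the block unless the block is named, so their spread is too small.

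**Figure D1:**
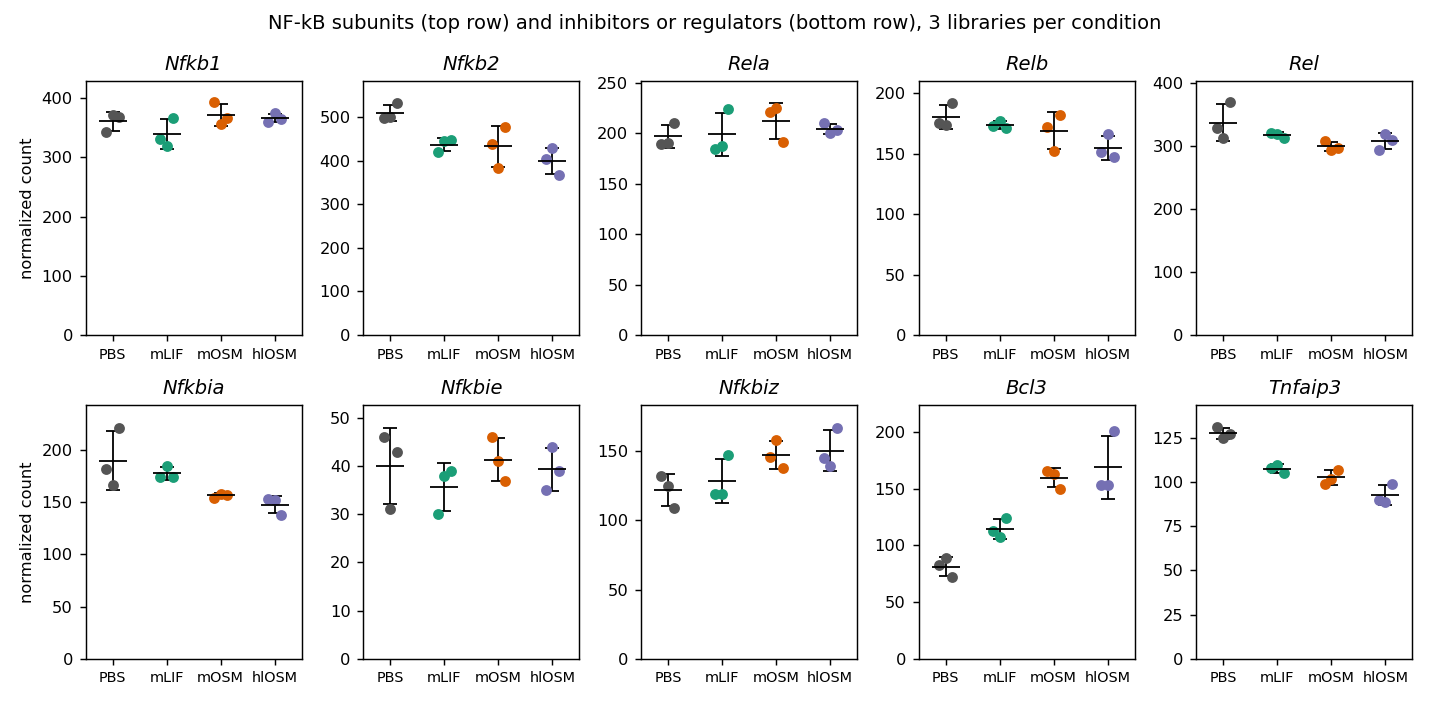
Normalized counts (y axis, from 0) of the 10 genes in each of the 3 libraries per condition (points, PBS, mLIF, mOSM and hlOSM from left to right), with the mean and SD in black. The top row holds the subunits and the bottom row the inhibitors and regulators. All mOSM and hlOSM libraries lie above all PBS libraries for Bcl3 and Nfkbiz and below them for Nfkb2, Nfkbia and Tnfaip3.

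Bcl3 (ENSMUSG00000053175, chr7:19808462-19822770, minus strand, mm10), the gene of the nuclear regulator Bcl-3, showed the largest changes among the 10 genes. Its normalized counts were 83, 89 and 72 in the PBS libraries, 113, 107 and 124 in mLIF, 166, 163 and 150 in mOSM and 153, 153 and 201 in hlOSM. The 3 levels were separate: each mLIF library lay above each PBS library, and each mOSM and hlOSM library lay above each mLIF library, while the mOSM and hlOSM libraries overlapped. The log2 fold change against PBS was 0.49 ± 0.11 (SE; adjusted p = 0.00528) with mLIF, which corresponds to 1.41-fold. It was 0.97 ± 0.11 (SE; adjusted p = 3.21e-07) with mOSM and 1.04 ± 0.11 (SE; adjusted p = 8.60e-08) with hlOSM, or 1.96-fold and 2.06-fold. The hlOSM mean carried the largest spread, since 1 of its libraries lay at 201 and the other 2 at 153. Genes on the opposite strand overlap 6.51% of the exonic bases of Bcl3, and the strand setting of the counting is not given in the sources used here.

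Nfkbiz (ENSMUSG00000035356, chr16:55811375-55838899, minus strand), which encodes IkBζ, had normalized counts of 132, 125 and 109 in PBS, 119, 119 and 147 in mLIF, 146, 158 and 138 in mOSM and 145, 139 and 167 in hlOSM. The mLIF libraries overlapped those of PBS, whereas all libraries of mOSM and hlOSM lay above the highest PBS library. The rise was small, with a log2 fold change of 0.27 ± 0.10 (SE; adjusted p = 0.0438) with mOSM and 0.30 ± 0.10 (SE; adjusted p = 0.0233) with hlOSM, against 0.07 ± 0.10 (SE; adjusted p = 0.710) with mLIF. It was close to the threshold and rested on single libraries. Without PBS replicate 3, the adjusted p was 0.203 with mOSM and 0.123 with hlOSM. Without hlOSM replicate 3, it was 0.126 with hlOSM. With mOSM it was 0.0653 without PBS replicate 2, and 0.0844 or 0.162 without mOSM replicate 1 or 2. With replicate numbers entered as a block, it was 0.0792 with mOSM.

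Tnfaip3 (ENSMUSG00000019850, chr10:19000910-19015657, minus strand), the gene of A20, fell with both OSM proteins. Its normalized counts were 131, 125 and 127 in PBS, 108, 110 and 105 in mLIF, 99, 102 and 107 in mOSM and 90, 89 and 99 in hlOSM. No library of any cytokine reached the lowest PBS library, and the spread within conditions was small, between 2.34% and 5.94% of the mean. The log2 fold change was −0.31 ± 0.09 (SE; adjusted p = 0.00752) with mOSM and −0.46 ± 0.09 (SE; adjusted p = 0.000198) with hlOSM, so that it fell by 19.5% and 27.3%. With mLIF it was −0.24 ± 0.09 (SE), which did not pass the threshold (adjusted p = 0.0732) although the libraries of mLIF and PBS did not overlap.

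Nfkbia (ENSMUSG00000021025, chr12:55489410-55492647, minus strand), the gene of IkBα, had normalized counts of 182, 166 and 221 in PBS, 174, 185 and 174 in mLIF, 154, 158 and 157 in mOSM and 153, 152 and 138 in hlOSM. The PBS libraries were spread widely, with an SD of 14.9% of the mean, and the mLIF libraries lay within their range. All libraries of mOSM and hlOSM lay below the lowest PBS library. The log2 fold change was −0.27 ± 0.09 (SE; adjusted p = 0.0251) with mOSM and −0.35 ± 0.09 (SE; adjusted p = 0.00343) with hlOSM, against −0.08 ± 0.09 (SE; adjusted p = 0.590) with mLIF. The fall with mOSM rested in part on the PBS library at 221, since without this replicate 3 the log2 fold change was −0.15 (adjusted p = 0.208). It also lost the threshold without mOSM replicate 1 (adjusted p = 0.0686) and with the replicate number as a block (adjusted p = 0.0513). The fall with hlOSM passed with the block (adjusted p = 0.00884) and under each of the 15 alternatives tried, with an adjusted p of at most 0.0376. Its log2 fold change was −0.24 without PBS replicate 3. Apart from the block itself, these alternatives were fitted without the replicate number, so their spread is too small as well.

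Nfkbie (ENSMUSG00000023947, chr17:45555703-45563169, plus strand), the gene of IkBε, had few normalized counts, with 46, 31 and 43 in PBS, 30, 38 and 39 in mLIF, 46, 41 and 37 in mOSM and 35, 44 and 39 in hlOSM. The libraries of all conditions overlapped. The log2 fold changes were −0.15, 0.06 and −0.01, each with an SE of 0.17, and the 95% interval with hlOSM ran from −0.35 to 0.33, so that a change of the size seen in Nfkbia was not detectable here.

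Nfkb2 (ENSMUSG00000025225, chr19:46304320-46312385, plus strand), which encodes the precursor p100 of p52, fell most among the subunits. Its normalized counts were 498, 501 and 531 in PBS, 420, 444 and 446 in mLIF, 438, 383 and 477 in mOSM and 403, 428 and 368 in hlOSM. Every library of a cytokine lay below every PBS library. The log2 fold change was −0.24 ± 0.07 (SE; adjusted p = 0.0131) with mOSM and −0.35 ± 0.07 (SE; adjusted p = 0.000512) with hlOSM, so that it fell by 15.4% and 21.7%. With mLIF it was −0.22 ± 0.07 (SE), just outside the threshold (adjusted p = 0.0515). The mOSM libraries were the most spread, and the call with mOSM was lost without mOSM replicate 2, with 383 normalized counts (log2 −0.16, adjusted p = 0.112), and without PBS replicate 3 (log2 −0.21, adjusted p = 0.0570). Genes on the opposite strand, Psd among them, overlap 18.1% of the exonic bases of Nfkb2.

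Relb (ENSMUSG00000002983, chr7:19606217-19629438, minus strand) encodes the usual partner of p52. It had 175, 174 and 192 normalized counts in PBS, 173, 177 and 171 in mLIF, 172, 152 and 182 in mOSM and 151, 166 and 147 in hlOSM. Only the hlOSM libraries lay wholly below those of PBS. The log2 fold change with hlOSM was −0.22 ± 0.08 (SE; adjusted p = 0.0358), against −0.05 with mLIF and −0.10 with mOSM (adjusted p = 0.386). The call with hlOSM was weak, with an adjusted p of 0.0504, 0.144, 0.0964 and 0.117 without PBS replicate 1, PBS replicate 3, hlOSM replicate 1 and hlOSM replicate 3. With replicate numbers entered as a block it was 0.0753.

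The other subunits did not pass the test in any comparison. Rela (ENSMUSG00000024927, chr19:5637483-5648130, plus strand), the gene of the activating subunit p65, had 190, 191 and 210 normalized counts in PBS, 185, 188 and 224 in mLIF, 221, 225 and 192 in mOSM and 210, 200 and 203 in hlOSM. Its log2 fold changes were 0.01, 0.11 and 0.05, each with an SE of 0.08, and the libraries of all conditions overlapped. Nfkb1 (ENSMUSG00000028163, chr3:135584655-135691547, minus strand), which encodes the precursor p105 of p50, had 342, 372 and 368 in PBS, 331, 319 and 367 in mLIF, 393, 357 and 366 in mOSM and 360, 374 and 365 in hlOSM, with log2 fold changes of −0.09, 0.04 and 0.02 (SE 0.06). The 95% interval of Nfkb1 with hlOSM ran from −0.11 to 0.16 and that of Rela from −0.12 to 0.23. Rel (ENSMUSG00000020275, chr11:23736847-23770970, minus strand), the gene of c-Rel, had 329, 312 and 369 in PBS, 320, 319 and 313 in mLIF, 307, 294 and 296 in mOSM and 293, 318 and 310 in hlOSM. All mOSM libraries of Rel lay below those of PBS, with a log2 fold change of −0.17 ± 0.07 (SE; adjusted p = 0.0570), whereas the hlOSM libraries overlapped with PBS (log2 −0.13, adjusted p = 0.126).

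**Figure D2:**
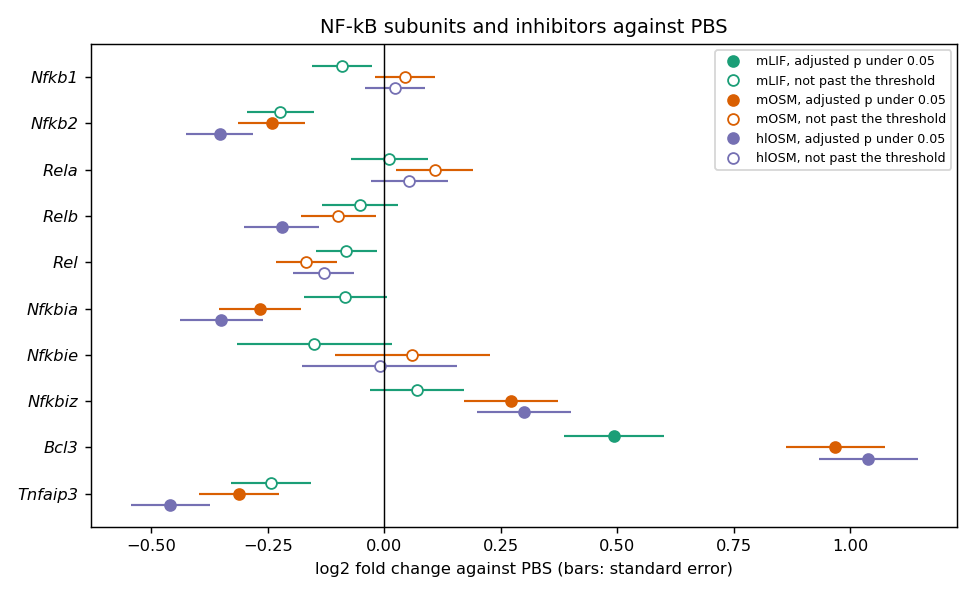
Log2 fold change against PBS (x axis, on the log2(normalized count + 1) scale) for each gene (y axis) with mLIF, mOSM and hlOSM, bars giving the standard error of the limma fit over 12 libraries. Filled points passed an adjusted p of 0.05. Bcl3 stands at 0.49, 0.97 and 1.04, while the filled points to the left of 0 lie between −0.22 (Relb) and −0.46 (Tnfaip3).

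The cytokines were then compared with each other, at the same labelled dose and time. Bcl3 was higher with mOSM than with mLIF (log2 difference 0.48 ± 0.11, SE; adjusted p = 0.00392) and higher with hlOSM than with mLIF (0.55 ± 0.11, SE; adjusted p = 0.000845). It was the only one of the 10 genes to differ between mOSM and mLIF, where 6.05% of all genes tested were higher and 5.76% lower. Nfkbia was lower with hlOSM than with mLIF (log2 difference −0.27 ± 0.09, SE; adjusted p = 0.0428), making 1 gene higher and 1 lower where 7.42% and 9.22% of all genes were. That difference lost the threshold when any 1 of the 6 libraries was left out (adjusted p between 0.0622 and 0.154) and with the replicate number as a block (adjusted p = 0.0875).

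mOSM and hlOSM, which differ in the AB loop, gave 0 calls among the 10 genes by limma, and 0 had an unadjusted p under 0.05. Of all genes tested, 0% were called higher and 0.106% lower with hlOSM. The largest difference was that of Tnfaip3, with a log2 difference of −0.15 ± 0.09 (SE; adjusted p = 0.720) and a 95% interval from −0.32 to 0.03. For Bcl3 the difference was 0.07 with an interval from −0.15 to 0.29, and for Nfkb2 it was −0.11 with an interval from −0.26 to 0.04. Nfkbia was the only gene with all hlOSM libraries (138 to 153) below all mOSM libraries (154 to 158), at a log2 difference of −0.08 (adjusted p = 0.899), and 5.62% of all genes tested had such an order. The falls of Nfkb2, Nfkbia and Tnfaip3 and the rises of Bcl3 and Nfkbiz were all numerically larger with hlOSM than with mOSM, but no difference passed the test, and the intervals allow differences in either direction.

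Since hlOSM adds signaling through the LIF receptor to that through the OSM receptor, the step from mOSM to hlOSM was compared with the step from PBS to mLIF. The difference between these steps was called for 0 of the 10 genes by limma, where 0.167% of all genes tested were called, and 1 gene had an unadjusted p under 0.05. That gene was Bcl3, with a step of 0.49 from PBS to mLIF, a step of 0.07 from mOSM to hlOSM and a difference of −0.42 ± 0.15 (SE; adjusted p = 0.264). Tested for any difference among the 4 conditions, 5 of the 10 genes passed, where 34.2% of all genes did. These were Bcl3 (adjusted p = 1.46e-07), Tnfaip3 (0.00157), Nfkb2 (0.00364), Nfkbia (0.0106) and Nfkbiz (0.0474), the last of which lost the threshold with the replicate number as a block (adjusted p = 0.0982).

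Levels can be compared between genes only per length, so normalized counts were divided by the length of the merged exons in kb. This length joins the exons of all annotated transcripts of a gene, from 1.61 kb for Nfkbia to 12.1 kb for Nfkb1. Where the RNA present is shorter, the level per kb is understated, so the order between genes is approximate. On this scale Nfkbia and Nfkb2 were the highest in PBS, with 118 ± 17.6 and 111 ± 3.98 (SD, n = 3) normalized counts per kb, and their libraries overlapped. They were followed by Rela (64.1 ± 3.67), Relb (46.4 ± 2.60), Rel (45.1 ± 3.92), Bcl3 (32.9 ± 3.48), Nfkb1 (29.9 ± 1.35), Nfkbiz (24.3 ± 2.35), Tnfaip3 (17.7 ± 0.423) and Nfkbie (13.1 ± 2.61), where the libraries of Relb and Rel and those of Bcl3 and Nfkb1 overlapped and the other neighbours were apart. Bcl3 was the gene that moved most in this order. From place 6 in PBS it moved to place 4 in mLIF (46.3 ± 3.48 per kb) and mOSM (64.5 ± 3.44) and to place 3 in hlOSM (68.3 ± 11.2), overlapping with Relb in mLIF and with Rela in mOSM and hlOSM. In hlOSM its libraries also overlapped with those of Nfkb2 (87.2 ± 6.57), so its place between Nfkb2 and Rela was not resolved there. Tnfaip3 fell to the level of Nfkbie, with which it overlapped in mOSM (14.2 ± 0.559 against 13.6 ± 1.48) and hlOSM (12.8 ± 0.762 against 12.9 ± 1.48).

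**Figure D3:**
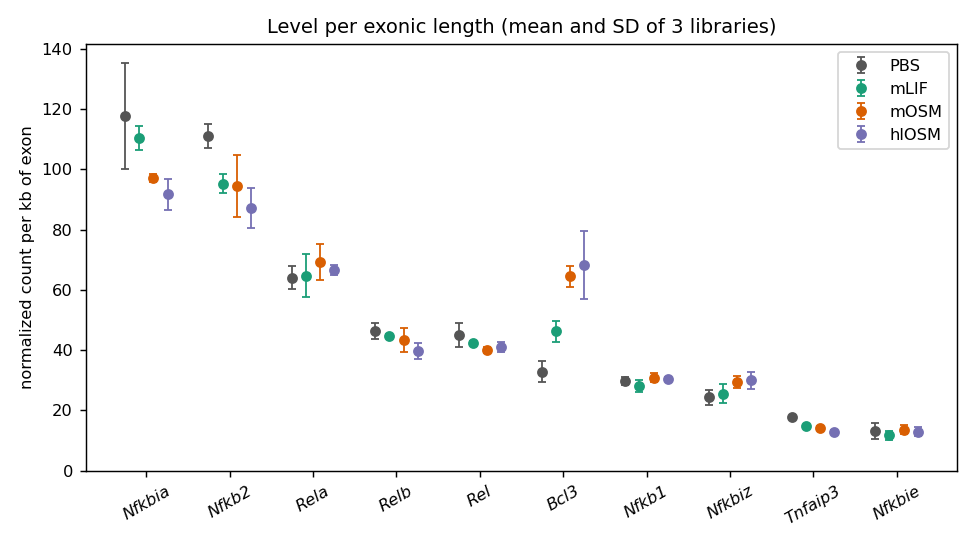
Normalized counts per kb of merged exon (y axis, from 0) for the 10 genes in the order of their PBS level (x axis). Points give the mean and bars the SD of 3 libraries in PBS, mLIF, mOSM and hlOSM. Bcl3 moves from 32.9 in PBS to 68.3 in hlOSM, the level of Rela, while Nfkbia and Nfkb2 decline from 118 and 111 to 91.7 and 87.2.

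Some balances between regulators and subunits, picked after the values had been seen and therefore given without a test, show these shifts within each library. The size of each ratio depends on the merged exon lengths, while its relative change between conditions does not. The ratio of Bcl3 to Nfkb1 per kb was 1.10 ± 0.128 (SD, n = 3) in PBS, 1.65 ± 0.0146 with mLIF, 2.09 ± 0.118 with mOSM and 2.25 ± 0.378 under hlOSM. Nfkbia relative to Rela was at 1.83 ± 0.175 in PBS, 1.72 ± 0.209 with mLIF, 1.41 ± 0.130 with mOSM and 1.38 ± 0.0771 with hlOSM. Nfkb2 relative to Nfkb1 went from 3.72 ± 0.157 in PBS to 3.40 ± 0.238, 3.06 ± 0.323 and 2.87 ± 0.191 with mLIF, mOSM and hlOSM. Relb relative to Rela was at 0.724 ± 0.00406 in PBS and 0.599 ± 0.0495 with hlOSM. In each of these ratios the hlOSM libraries did not overlap with those of PBS. This was largely built in, since each numerator had been called with hlOSM and each denominator had not, and it is no further result.

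The region upstream of these genes was read from RefSeq (GRCm38.p6), to set genes that moved in opposite directions beside each other. For 7 of the 10 genes the 250 bases before a transcription start were given, with 10 starts in all, because Nfkb2 has 3 and Tnfaip3 has 2. The windows were searched on both strands for the decameric kB consensus, which NF-kB dimers bind, and for the STAT element TTCNNNGAA. Among 32851 mouse promoters of the same length 3.90% held a kB match and 7.02% held the STAT element. Bcl3, which rose, and Nfkbia, which fell, are shown whole. In the Nfkbia window (chr12:55492648-55492897, minus strand) capitals mark the kB match, 29 to 20 bases before the start, whereas the Bcl3 window (chr7:19822756-19823005, minus strand) held neither motif.

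Nfkbia: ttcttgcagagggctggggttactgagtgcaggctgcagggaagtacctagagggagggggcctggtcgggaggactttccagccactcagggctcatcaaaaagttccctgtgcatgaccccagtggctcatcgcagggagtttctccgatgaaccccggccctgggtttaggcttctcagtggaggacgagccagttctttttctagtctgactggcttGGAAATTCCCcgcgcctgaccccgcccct
Bcl3: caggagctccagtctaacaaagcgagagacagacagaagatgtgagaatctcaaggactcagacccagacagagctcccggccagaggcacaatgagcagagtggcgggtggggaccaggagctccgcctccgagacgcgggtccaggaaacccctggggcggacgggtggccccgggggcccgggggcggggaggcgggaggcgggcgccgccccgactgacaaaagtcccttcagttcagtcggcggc

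Of the other genes with a window, Rela held neither motif, whereas Tnfaip3, Nfkb2, Rel and Nfkbie each held a kB match in at least 1 window. For these, stretches of 30 bases around the match nearest to the start are shown with the match in capitals, at chr10:19015411-19015440 (minus strand) for Tnfaip3, chr19:46304707-46304736 (plus strand) for the most upstream start of Nfkb2, chr11:23771042-23771071 (minus strand) for Rel, where 2 matches overlap, and at chr17:45555584-45555613 (plus strand) for Nfkbie. The Tnfaip3 and Nfkb2 stretches lie inside the gene coordinates given above, which come from another annotation with an earlier start. The most upstream Nfkb2 window was the only one with the STAT element, as TTCCCCGAA at 148 to 140 bases before the start.

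Tnfaip3: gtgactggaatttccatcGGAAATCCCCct
Nfkb2: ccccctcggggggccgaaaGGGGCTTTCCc
Rel: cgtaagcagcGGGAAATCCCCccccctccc
Nfkbie: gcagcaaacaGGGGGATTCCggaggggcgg

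The genes with a kB match thus included 3 that fell with hlOSM (Nfkbia, Tnfaip3 and Nfkb2) and 2 that did not pass the test (Rel and Nfkbie). No window was given for Nfkbiz, the other gene that rose, or for Relb and Nfkb1. Bcl3 was therefore the sole risen gene read, and risen and fallen genes cannot be compared by their matches here. A match describes letters in these windows and not binding, and an absent match says only that the letters are not there.

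The wider NF-kB pathway was described with 4 lists, which were chosen with earlier results of these data known. Of 21 receptors and ligands that feed into NF-kB, 11 passed the filter, and Tnf, Il1a and Il1b, genes of the classical activating cytokines, were among those that did not. With mLIF 4 of the 11 rose and 0 fell, with mOSM 6 rose and 2 fell and with hlOSM 6 rose and 1 fell, with median log2 fold changes of 0.13, 0.17 and 0.24. These counts were the same with the replicate numbers as a block. In this order 36.4%, 54.5% and 54.5% of the 11 rose, where 5.47%, 15.4% and 18.2% of all genes tested did. The shares that fell were 0%, 18.2% and 9.09%, where 4.44%, 15.8% and 19.8% of all genes did. Il1r1, the receptor of IL-1, rose from 212, 196 and 155 normalized counts in PBS to 448, 479 and 535 in mOSM and 442, 420 and 518 in hlOSM (log2 1.38 and 1.30, SE 0.10), with 225, 237 and 246 in mLIF (log2 0.34, adjusted p = 0.0265). Tnfrsf1a, the main TNF receptor, rose from 234 ± 35.2 (SD, n = 3) in PBS to 312 ± 18.4 in mLIF, 372 ± 25.9 in mOSM and 356 ± 38.0 in hlOSM. Tlr3, a receptor for double-stranded RNA, rose by 0.74, 0.44 and 0.80 on the log2 scale, while Il33, a cytokine of the IL-1 family, went from 11, 5 and 2 normalized counts in PBS to 7, 18 and 18 in mLIF, 198, 183 and 251 in mOSM and 196, 173 and 261 in hlOSM. The Il33 libraries of mLIF overlapped with those of PBS although the gene passed the test (log2 1.25, adjusted p = 0.0232), and at the low PBS level its fold changes of 5.13 and 5.11 with mOSM and hlOSM on the log2 scale depend on the pseudocount. In contrast, Tlr2, a receptor for bacterial lipoproteins, fell by 1.11 with mOSM and by 1.38 with hlOSM, from 61, 56 and 62 in PBS to 31, 29 and 22 and to 19, 20 and 29. Tnfsf13b, the gene of the ligand BAFF, fell by 1.03 with mOSM, while its log2 fold change with hlOSM was −0.36 (adjusted p = 0.0644).

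All 29 adaptors and kinases passed the filter, and most did not pass the test. With mLIF 1 rose and 0 fell, with mOSM 5 rose and 1 fell and with hlOSM 5 rose and 4 fell, which became 3 and 3 with hlOSM and 3 and 1 with mOSM when replicate numbers entered as a block. In this order 3.45%, 17.2% and 17.2% of the 29 rose, where 5.47%, 15.4% and 18.2% of all genes tested did. The shares that fell were 0%, 3.45% and 13.8%, where 4.44%, 15.8% and 19.8% of all genes did. The median log2 fold changes were −0.0041, 0.013 and 0.046. Myd88, the adaptor of Toll-like and IL-1 receptors, rose with all 3 cytokines, from 136, 121 and 110 normalized counts in PBS to 159, 181 and 172 in mLIF, 215, 226 and 220 in mOSM and 202, 188 and 256 in hlOSM (log2 0.48, 0.85 and 0.80, SE 0.10). Other genes overlap 11.3% of its exonic bases on the opposite strand. Irak4, the kinase that Myd88 recruits, rose by 0.71 with mOSM and by 0.82 with hlOSM, and Rnf31, the catalytic part of the linear ubiquitin ligase, by 0.33 and 0.43. Sharpin, another part of that ligase, rose with hlOSM (log2 0.32, adjusted p = 0.0449, which became 0.0806 with the block) and stood at a log2 fold change of 0.18 with mOSM (adjusted p = 0.288). Birc2, a ubiquitin ligase of the TNF receptor complex, fell by 0.30 with mOSM and by 0.36 with hlOSM. Its partners Traf2 and Birc3 fell with hlOSM by 0.26 and 0.17, the latter with an adjusted p of 0.0411 and of 0.0920 with the block.

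Among 17 of 19 further inhibitors that passed the filter, 0 rose and 1 fell with mLIF, 3 rose and 3 fell with mOSM and 5 rose and 5 fell with hlOSM, with median log2 fold changes of −0.02, −0.05 and −0.14. With the block these counts were 0 and 0, 3 and 3, and 4 and 4. Without it 0%, 17.6% and 29.4% of the 17 rose, where 5.47%, 15.4% and 18.2% of all genes tested did. The shares that fell were 5.88%, 17.6% and 29.4%, where 4.44%, 15.8% and 19.8% of all genes did. The largest change was that of Pdlim2, which encodes a nuclear ubiquitin ligase for p65. Its normalized counts were 32, 34 and 58 in PBS and 31, 21 and 49 in mLIF, but 3, 2 and 1 in mOSM and 2, 4 and 3 in hlOSM, so that the mOSM and hlOSM libraries lay far below those of PBS and mLIF (log2 −3.82 ± 0.34 and −3.38 ± 0.34, SE; adjusted p = 1.67e-08 and 7.27e-08). At such low values a fold change depends on the pseudocount. Cyld, a deubiquitinase that limits NF-kB signaling as A20 does, fell by 0.20 with mLIF (adjusted p = 0.0298, or 0.0672 with the block), by 0.38 with mOSM and by 0.45 with hlOSM, and Tnip1, whose product binds A20, fell with hlOSM by 0.32. Zc3h12a, which encodes an RNase that degrades inflammatory mRNAs, rose by 0.69 with mOSM and by 0.79 with hlOSM, and Otulin and Tnip2 rose with both (log2 0.48 and 0.47, and 0.33 and 0.40). Nfkbib, the gene of IkBβ, rose with hlOSM (log2 0.28, adjusted p = 0.0273, or 0.0631 with the block), with a log2 fold change of 0.10 with mOSM (adjusted p = 0.491).

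Of 32 genes known as NF-kB targets, many of which also respond to STAT3, 26 passed the filter. With mLIF 4 rose and 0 fell, with mOSM 13 rose and 0 fell and with hlOSM 12 rose and 4 fell. In this order 15.4%, 50% and 46.2% of the 26 rose, where 5.47%, 15.4% and 18.2% of all genes tested did. The shares that fell were 0%, 0% and 15.4%, where 4.44%, 15.8% and 19.8% of all genes did. As the list was chosen with earlier results of these data known, these shares are a description and not a test. Lcn2, with 3, 5 and 1 normalized counts in PBS, passed the filter only through libraries with a cytokine, which favours genes that rise. With the block 3, 12 and 12 rose and 0, 0 and 3 fell. The median log2 fold changes were 0.11, 0.34 and 0.24. Il6 had 8, 15 and 11 normalized counts in PBS, 11, 16 and 11 in mLIF, 111, 76 and 108 in mOSM and 110, 58 and 92 in hlOSM (log2 3.03 and 2.82 with the OSM proteins). Sele, the endothelial adhesion molecule E-selectin, rose from 31.7 ± 5.86 (SD, n = 3) in PBS to 53.7 ± 6.51 in mLIF and 170.0 ± 21.2 and 170.0 ± 24.6 in mOSM and hlOSM, beside the rise of the endothelial marker sum given above. Ptgs2, the gene of the inducible cyclooxygenase, rose from 121 to 163 normalized counts in PBS to 417 to 449 with mOSM and 348 to 541 with hlOSM, and Ptx3, a secreted pentraxin, rose by 1.41 and 1.16 on the log2 scale. In contrast Irf1, C3 and Vcam1, an interferon-regulated transcription factor, a complement factor and an adhesion molecule, fell with hlOSM by 0.34, 0.33 and 0.22. Their log2 fold changes were −0.31, −0.14 and −0.22 with mLIF and −0.09, −0.20 and −0.19 with mOSM, which did not pass the test. Of the 26 genes 0 were called lower with hlOSM than with mLIF or mOSM, so these falls are not particular to hlOSM. Nfkbia, Tnfaip3 and Nfkb2, which are also known targets of NF-kB, fell in the hlOSM libraries too.

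**Figure D4:**
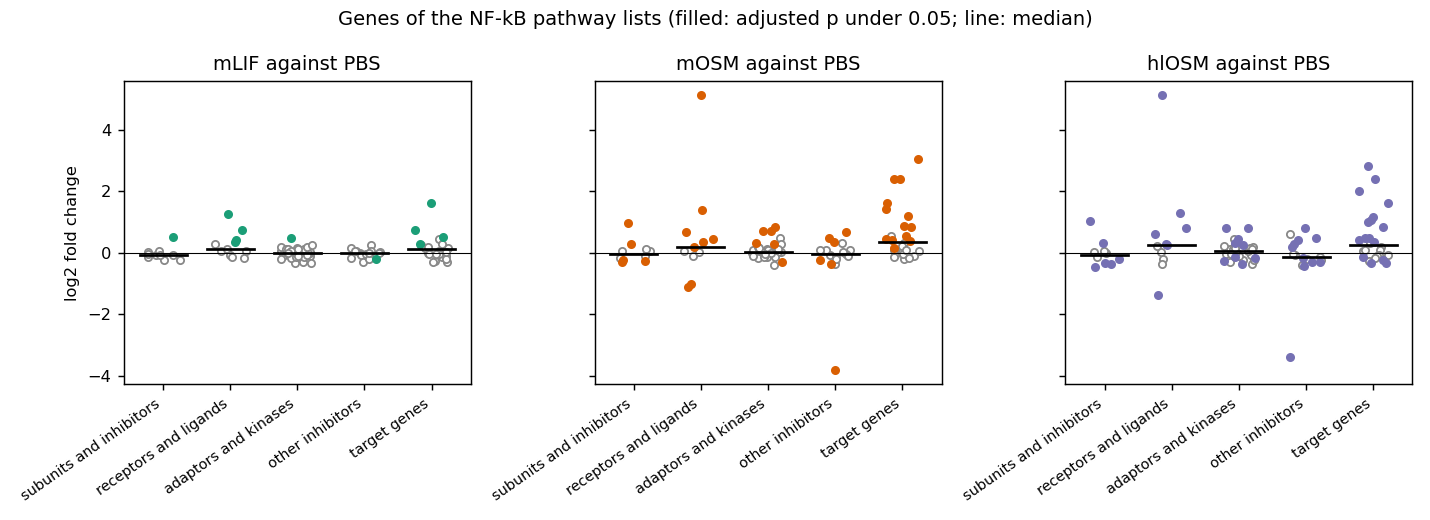
Log2 fold change against PBS (y axis) of single genes (points) in the 10 subunit and inhibitor genes and in the 4 pathway lists (x axis), in a panel each for mLIF, mOSM and hlOSM. Filled points passed an adjusted p of 0.05 and black lines are medians. The target list has its median at 0.11, 0.34 and 0.24, and the lowest point, Pdlim2, lies among the other inhibitors at −3.82 with mOSM and −3.38 with hlOSM.

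The genes whose profile over the 12 libraries was most like that of the 3 genes with the strongest overall test were sought among 8442 genes whose normalized counts averaged at least 50, as a description. Closest to Bcl3 were Pign (Pearson r = 0.994) and Plcxd2 (r = 0.989), with means of 254, 318, 385 and 399 and of 67.7, 108, 153 and 173 normalized counts over the conditions in the order used above. Closest to Tnfaip3 were P2rx5 (r = 0.984) and Srl (r = 0.983), and closest to Nfkb2 were Myo18a (r = 0.980) and Insyn1 (r = 0.979). These values were picked as the highest of 8442. They were taken over all 12 libraries, so differences between the 4 conditions enter them, and likeness within conditions was not computed.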

How the data were processed

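RNA of 12 libraries (4 conditions, 3 libraries each) was analysed, with conditions and replicate numbers read from their titles. The authors aligned trimmed single-end reads to mm10 (STAR 2.7.7a), counted reads lying in exons of a single gene (featureCounts 1.6.5), normalized and rounded them. The deposited values are thus scores (rounded normalized counts), and not counts of reads. The normalization is not given in the sources used here, and the depth is unknown.

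Genes that reached a normalized count of 10 in 3 or more libraries (13184) were tested on log2(normalized count + 1) with limma 3.58.1 (R 4.3.3; lmFit, eBayes with trend), all 12 libraries in a single fit, two-sided, with Benjamini-Hochberg adjustment over all genes. The pseudocount of 1 understates fold changes of low genes. The script was tested on simulated data. The 10 genes, the lists and the tests were chosen with earlier results of these data known. From each list up to 4 risen and 3 fallen genes with the largest change with mOSM or hlOSM and a mean of at least 20 were named. Exon lengths and overlaps came from GENCODE vM21. Alternatives were another pseudocount, filter or scaling, a robust fit, a fit of only the 6 libraries compared, a block for replicate numbers, and leaving out each library in turn. Ltb, Ccl19, Cxcl13, Saa3, Cd3e, S100a8 and S100a9 were not analysed here.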

Additional observations from a re-analysis of the deposited data

How the results depend on the processing

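With mLIF against PBS, the number of the 10 genes called was 1, which became 2 with a pseudocount of 5, a filter at 50, quantile normalization, a robust fit or the 6 libraries compared only. Quantile normalization added Tnfaip3, and the other 4 settings added Nfkb2. Leaving out 1 library gave 1 throughout. With mOSM against PBS 5 genes were called, 3 with a block for replicate numbers and 2 to 5 when a library was left out, with 2 without PBS replicate 3 and 3 without mOSM replicate 1 or 2. A filter at 50 added Rel, dropping the filter removed Nfkbiz, and quantile normalization did both. With hlOSM against PBS the number was 6, 5 with the block, and 4 to 6 without a library. Relb, the gene lost with the block, was also lost without the filter and with equal library totals. With hlOSM against mLIF it was 2, and 1 without the filter or with the block, and 1 to 2 without a library. With mOSM against mLIF it was 1 and with hlOSM against mOSM 0 under all settings run. The cause of these shifts was not tested, except that fits without a library hold fewer samples.

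The calls of Bcl3 in 5 comparisons and those of Tnfaip3 with mOSM and hlOSM and of Nfkb2 and Nfkbia with hlOSM were kept under all 15 alternatives. Apart from the block itself, these fits left out the replicate number, so their spread is too small. Some calls came near the threshold, with adjusted p up to 0.0439 (Bcl3 with mLIF), 0.0376 (Nfkbia with hlOSM) and 0.0350 (Tnfaip3 with mOSM). Whether they would last in fits with both the block and a library left out was not tested. Relb with hlOSM also lost its call without the filter (adjusted p = 0.0514) and with equal library totals (0.0537), and Nfkbiz with mOSM without the filter (0.0629) and with quantile normalization (0.0909). Rel with mOSM, not called otherwise, was called with a filter at 50, with quantile normalization and without PBS replicate 2. No called value changed direction, and the 37 values that changed sign, in 17 results called under neither setting, were at most 0.11 in size on the log2 scale.

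The 18 correlations between deviations of same-numbered libraries lay between −0.518 and 0.0221, with a mean of −0.328. Because the replicate-number difference averaged over conditions is nearly constant over genes, these deviations add up to a constant. Their correlations are thereby pushed below 0 on average, so this check could not show whether the numbers pair the samples. With the replicate number as a block, 1 of the 10 genes rose and 2 fell with mOSM, and 2 rose and 3 fell with hlOSM. The fit with the block gave fewer calls over all genes than the fit reported first.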
